A study of Homo sapiens with 6 samples.

Results

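Cyclins and cyclin-dependent kinases (CDKs) are described here by the intronic places at which RNA stayed protected from nuclease in purified complexes of the splicing regulator Rbfox1. Their genes were taken by name from the deposited lists: any cluster assigned to 1 gene alone whose symbol begins with CCN or CDK and fits the numbering of these 2 families, with cyclin Y, its relative CCNYL1 and the cyclin-binding protein CCNDBP1 included. That gave 43 genes, all present in both lists, out of 11805 genes that either list names alone. They held 744 of the 188027 clusters in the F125A list and 1496 of the 366429 clusters in the WT list. A cluster is a stretch of intron covered by sequenced RNA.

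The F125A group carried FLAG-tagged Rbfox1 F125A, in which a phenylalanine of the RNA recognition motif is replaced by alanine (2 libraries), and was set against FLAG-tagged Rbfox1 WT (3 libraries). Both groups are of the Rbfox2 knockout line KO#7 of HEK293 Flp-In, human embryonic kidney cells that accept a transgene at a fixed site, so all values come from 1 knockout line that lacks Rbfox2. The complexes hold Rbfox1 together with LASR, a large assembly of splicing regulators that contains other RNA-binding proteins. A control library from the same line was not analysed here. Each group has 1 list for all its libraries, without read counts or scores, so no value has a replicate error, read depth is unknown and no test between the conditions was possible. Unless stated otherwise, intervals are exact binomial 95% intervals, cover counting error only and treat clusters as independent.

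CDKs are kinases, most of which need a bound cyclin to be active, while CDK5 is activated by other proteins. One branch drives the cell cycle: D-type cyclins with CDK4 and CDK6 and cyclin E with CDK2 bring cells through G1, and cyclins A and B with CDK2 and CDK1 act in S phase and mitosis. The other branch acts on transcription: cyclin H with CDK7, cyclin T with CDK9, cyclin K with CDK12 and CDK13, and cyclin C with CDK8 and CDK19 modify RNA polymerase II or its Mediator complex, and the L-type cyclins with CDK11 are tied to splicing. Rbfox proteins bind the pentamer GCAUG, written GCATG in DNA letters, through their RNA recognition motif.

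Sequence could be read for the member clusters that lay wholly inside the 300-nt windows around annotated gene starts of RefSeq (GRCh38.p14), 2 from the F125A list and 6 from the WT list. They are shown because they set clusters found with both proteins beside clusters of the WT list alone. Each is given 5′ to 3′ on the transcribed strand in DNA letters, and capitals mark the pentamer GCATG, runs of 5 or more T and runs of 3 or more G. Overlapping matches of the motifs were all marked.
CCNI, F125A, chr4:77074902-77074969, minus strand, overlapping a WT cluster: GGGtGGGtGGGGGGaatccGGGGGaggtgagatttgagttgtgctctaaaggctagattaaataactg
CCNI, WT, chr4:77074893-77074983, minus strand, overlapping the F125A cluster: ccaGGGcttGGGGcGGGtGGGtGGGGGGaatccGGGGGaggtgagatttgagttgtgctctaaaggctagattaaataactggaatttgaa
CCNI, WT, chr4:77074984-77075024, minus strand, no F125A cluster: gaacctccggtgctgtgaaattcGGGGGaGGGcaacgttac
CDK16, F125A, chrX:47222999-47223040, plus strand, overlapping a WT cluster: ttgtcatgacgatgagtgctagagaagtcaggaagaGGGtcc
CDK16, WT, chrX:47222970-47223039, plus strand, overlapping the F125A cluster: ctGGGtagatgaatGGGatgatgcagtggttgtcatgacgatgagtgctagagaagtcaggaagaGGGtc
CDK14, WT, chr7:90709668-90709714, plus strand, no F125A cluster: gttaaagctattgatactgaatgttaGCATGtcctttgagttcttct
CDK14, WT, chr7:90709741-90709846, plus strand, no F125A cluster: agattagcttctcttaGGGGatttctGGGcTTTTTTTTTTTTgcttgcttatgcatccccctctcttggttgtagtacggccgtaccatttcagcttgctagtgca
CDK6, WT, chr7:92836333-92836394, minus strand, no F125A cluster: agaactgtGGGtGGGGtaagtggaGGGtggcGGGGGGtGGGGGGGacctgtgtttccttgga

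The pentamer stood in 1 of these 8 clusters, the 47-nt CDK14 cluster of the WT list that no F125A cluster overlapped. In CCNI the F125A cluster lay wholly inside the WT cluster that it overlapped, so the G-rich sequence common to both follows from their position. The other CCNI cluster of the WT list directly abuts that WT cluster, so it is not a separate place. In CDK16 the F125A cluster began inside the WT cluster and ended within a base of it. Both CDK14 clusters lie around a second annotated start of the gene. Over all genes, 33 of 871 F125A clusters inside such windows held GCATG, a share of 3.79% (2.62 to 5.28%), against 122 of 1016 WT clusters, 12.0% (10.1 to 14.2%). Divided by overlap, a choice made after seeing the data, the share was 2.52% in F125A clusters without a partner and 4.07% in those with one. It was 4.52% in WT clusters with a partner and 31.1% (25.8 to 36.8%) in WT clusters without one. Base composition moved with this difference: the median GC content was 66.7% in F125A and 50.6% in WT clusters without a partner, and its part in the result was not tested. Of all 35116 windows, 19.6% held GCATG on the gene's strand and 29.5% on either strand. For the T run these shares were 24.9% and 39.2%, and for the G run 96.7% and 99.5%. The window shares are for whole windows, which are much longer than the clusters. Clusters inside them had a median length of 56 nt in the F125A list and 53 nt in the WT list. The window shares are therefore no background for the cluster shares, and stretches of equal length were not compared. With 2 and 6 clusters, the members give no share of their own that could be read.

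Members of both families were recovered with both proteins. The WT list held more clusters of every member except 3 with more F125A clusters and 5 with equal counts. Over the 2 lists there were 0.513 F125A clusters per WT cluster. To set that aside, 1 was added to each count and the log2 ratio of F125A to WT clusters was taken relative to the list totals, so that 0 means the same share of each list. It was computed for genes with at least 20 clusters in the lists together, 21 of the 43 members. Of these, 11 were above 0 and 10 were below it, and the median was 0.04 (from order statistics, -0.18 to 0.52), and all 5626 genes with as many clusters had the same median of 0.04. No member reached 2-fold in either direction, where 1.99% of all genes did so toward F125A and 2.51% toward WT. A count of 0 in 21 genes is close to that background. The 10 CDK genes had a median of -0.16, with 4 above 0 and 6 below, and the 11 cyclin genes a median of 0.36, with 7 above 0 and 4 below. How the families differ in gene length is given further on.

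**Figure D1:**
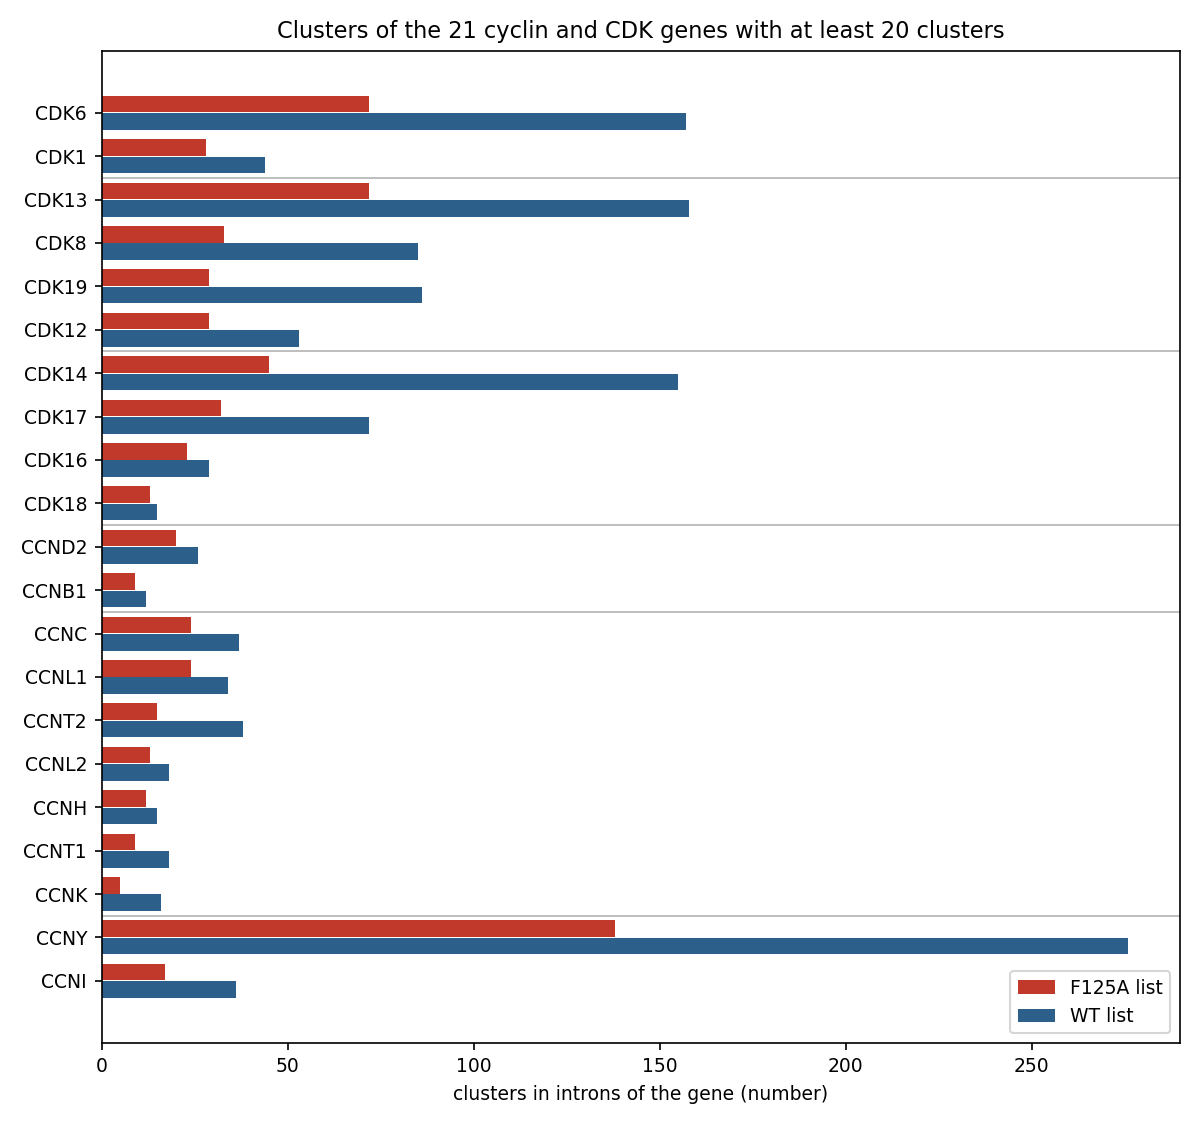
Number of intronic clusters (x axis) in the F125A list (red) and the WT list (blue) for the 21 cyclin and CDK genes with at least 20 clusters, ordered by role from cell-cycle CDKs at the top to cyclins Y and I at the bottom. CCNY stands out with 138 F125A and 276 WT clusters, and the WT bar is the longer one in all 21 genes.

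Among the kinases of the cell cycle, CDK6 and CDK1 carried nearly all clusters. CDK6 (chr7:92604921-92836573, minus strand, GRCh38), the partner of D-type cyclins that phosphorylates the retinoblastoma protein, had 72 F125A and 157 WT clusters, a log2 ratio of -0.15 (-0.59 to 0.25). CDK1 (chr10:60778331-60794852, plus strand), the kinase of mitosis, had 28 F125A and 44 WT clusters in 16.5 kb, a ratio of 0.33 (-0.43 to 1.03). Per length CDK1 was the densest member in the WT list, with 16.9 F125A and 26.6 WT clusters per 10 kb, against medians of 2.97 and 5.80 over all 5626 genes. Those medians cover genes of all lengths, and medians for genes of similar length were not computed. CDK4, the other kinase of D-type cyclins, had 7 F125A and 5 WT clusters, and CDK2, the kinase of cyclins E and A, 1 F125A and 2 WT clusters. Together these 4 kinases held 108 F125A and 208 WT clusters, close to the proportion of the list totals. Relative to genes of similar length both ratios changed sign, CDK6 to 0.06 and CDK1 to -0.15.

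The transcription kinases held 172 F125A and 402 WT clusters, and 3 of their 4 genes with enough clusters lay below 0. CDK13 (chr7:39950256-40099580, plus strand), which with cyclin K phosphorylates the tail of RNA polymerase II, had 72 F125A and 158 WT clusters, a log2 ratio of -0.16 (-0.59 to 0.24). Its close relative CDK12 (chr17:39461486-39567559, plus strand), needed for expression of DNA repair genes, had 29 F125A and 53 WT clusters, a ratio of 0.11 (-0.61 to 0.77). The Mediator kinases are paralogs with the same partner, cyclin C. CDK8 (chr13:26254129-26405238, plus strand) had 33 F125A and 85 WT clusters, a ratio of -0.38 (-1.03 to 0.19). CDK19 (chr6:110609978-110815855, minus strand) had 29 F125A and 86 WT clusters, a ratio of -0.57 (-1.27 to 0.02). Both intervals include 0. CDK7, the kinase of general transcription factor TFIIH, had 6 F125A and 11 WT clusters, and CDK9, which releases paused polymerase, 2 F125A and 5 WT clusters. CDK11B, a kinase of the L-type cyclins, had 1 F125A and 4 WT clusters, and is uncertain because it has a near-identical neighbour, CDK11A.

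CDK14 had the lowest ratio of all members with enough clusters. This PFTAIRE kinase (chr7:90596321-91210590, plus strand) is activated by cyclin Y and acts on a Wnt co-receptor in mitosis. It held 45 F125A and 155 WT clusters, so F125A clusters were 0.575 times as frequent as the list totals would give (0.397 to 0.793), a log2 ratio of -0.80 (-1.33 to -0.33). It was the only 1 of the 21 whose counting interval did not include 0. The share of all genes with such an interval was not computed, so this does not set CDK14 apart. CDK14 is also the longest member at 614 kb, and relative to genes of similar length its ratio was -0.38. No interval was computed on that scale. The PCTAIRE kinases, named for a motif in their sequence, did not lie on 1 side of 0. CDK17 (chr12:96278225-96400439, minus strand) had 32 F125A and 72 WT clusters, a ratio of -0.18 (-0.86 to 0.41). CDK16, which cyclin Y also activates, had 23 F125A and 29 WT clusters, a ratio of 0.64 (-0.23 to 1.47), and CDK18 had 13 F125A and 15 WT clusters, 0.77 (-0.44 to 1.93), the highest of the members with enough clusters. CDK16 was the densest member in the F125A list, with 19.7 F125A and 24.8 WT clusters per 10 kb. Of its clusters, 13 in the F125A and 12 in the WT list directly abutted a neighbour on either side. With clusters closer than 50 nt merged, CDK16 had 8 F125A and 15 WT clusters and a ratio of 0.09, and relative to genes of similar length its ratio was -0.08. CDK5, the kinase of postmitotic neurons, had 1 cluster in each list.

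Cyclins of the cell cycle held few clusters, 57 in the F125A list and 71 in the WT list over 9 genes. Only CCND2 and CCNB1 had at least 20. CCND2, a G1 cyclin, had 20 F125A and 26 WT clusters, a log2 ratio of 0.60 (-0.33 to 1.48). CCNB1, the mitotic partner of CDK1, had 9 F125A and 12 WT clusters, a ratio of 0.58 (-0.88 to 1.92). The pooled ratio of the 9 genes was 0.65, and with so few clusters per gene no single one stands away from 0. CCND2 stood at 0.27 and CCNB1 at -0.14 relative to genes of similar length. CCND1 had 9 F125A and 10 WT clusters and CCNE1, which starts S phase with CDK2, 8 F125A and 6 WT clusters. CCNE1, CDK4 and CCNF, an F-box protein that marks targets for destruction, were the 3 members with more F125A than WT clusters. When genes with at least 10 clusters were taken, 32 members qualified and 2 of them, CCNE1 at 1.33 (-0.34 to 3.18) and CDK4 at 1.38 (-0.42 to 3.45), passed 2-fold toward F125A. At that minimum 3.61% of 7572 genes passed 2-fold toward F125A and 3.47% toward WT, and the intervals of both genes include 0.

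Cyclins of the transcription kinases held 102 F125A and 176 WT clusters, and all 7 genes had enough clusters for a ratio, 5 above 0 and 2 below. The tally turned relative to genes of similar length, with 1 above 0, 5 below and CCNL1 at 0, and their median was -0.20, against 0.36 relative to the list totals. CCNC, the cyclin of CDK8 and CDK19, had 24 F125A and 37 WT clusters, a log2 ratio of 0.36 (-0.47 to 1.12), and -0.07 relative to genes of similar length. CCNL1 and CCNL2, the L-type cyclins found with splicing factors, had 24 F125A and 34 WT clusters, a ratio of 0.48 (-0.36 to 1.26), and 13 F125A and 18 WT clusters, 0.52 (-0.66 to 1.60). CCNH, the cyclin of CDK7, had 12 F125A and 15 WT clusters, a ratio of 0.66 (-0.59 to 1.84). All its clusters lay in the first 20% of the annotated gene. The partners of CDK9 were CCNT1, with 9 F125A and 18 WT clusters and a ratio of 0.04 (-1.37 to 1.19), and CCNT2, with 15 F125A and 38 WT clusters and -0.32 (-1.35 to 0.52). CCNK, the cyclin of CDK12 and CDK13, had 5 F125A and 16 WT clusters, the lowest ratio of the cyclins at -0.54 with a wide interval (-2.52 to 0.80). Every interval of this group, relative to the list totals, includes 0.

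CCNY held more clusters than any other member in both lists. It encodes cyclin Y, a membrane-bound cyclin that activates CDK14 and CDK16, and lies at chr10:35247025-35572667 on the plus strand. It had 138 F125A and 276 WT clusters over 326 kb, a log2 ratio of -0.03 (-0.34 to 0.26), the narrowest interval of the members. Relative to genes of similar length its ratio was 0.28. CCNI, an atypical cyclin, had 17 F125A and 36 WT clusters, a ratio of -0.08 (-1.04 to 0.75). CCNYL1, a relative of cyclin Y, had 7 F125A and 12 WT clusters.

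The 22 members with fewer than 20 clusters together held 82 F125A and 116 WT clusters. Each had between 1 and 9 F125A clusters, with a median of 3, and between 1 and 12 WT clusters, with a median of 5. No member was found in 1 list only. On a list of 52 family genes drawn up by hand, 8 had no cluster named for them alone here: CCNA1, CCNB3, CCNI2, CCNO, CCNP, CCNYL2, CDK11A and CDK3. CCNJL, also on it, has a symbol outside the pattern used. CDK3 occurs only in clusters named jointly with TEN1-CDK3, 3 in each list, which do not count as members.

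**Figure D2:**
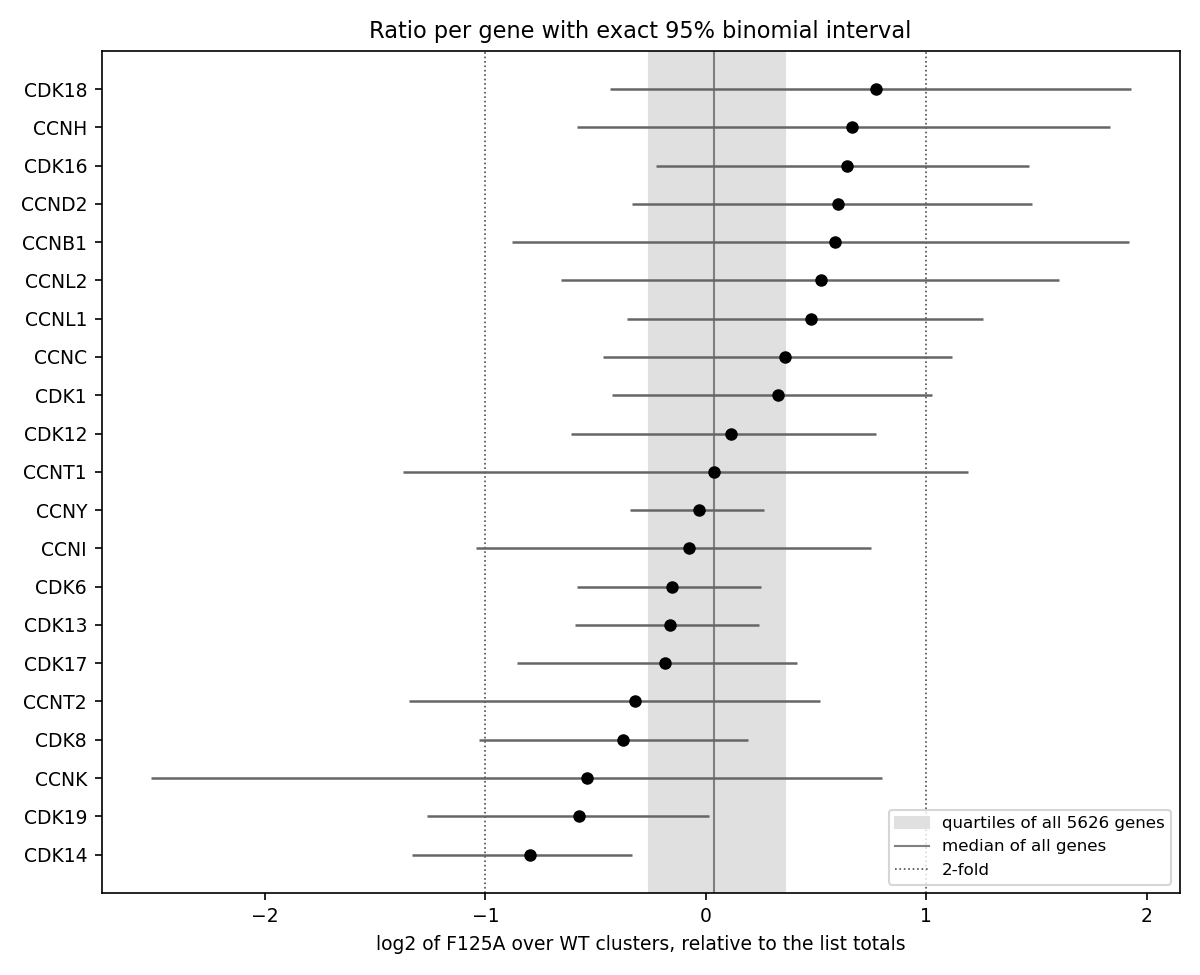
Log2 ratio of F125A to WT clusters relative to the list totals (x axis) for the 21 members with at least 20 clusters, highest at the top, with exact 95% binomial intervals. Grey marks the range between the quartiles of all 5626 genes, the solid line their median and dotted lines 2-fold. The ratios run from -0.80 in CDK14 to 0.77 in CDK18, and all 21 points lie between the dotted lines.

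Ratios went with gene length in the members as in all genes. Members under 100 kb had a median of 0.42, with 9 above 0 and 3 below. Members of 100 kb or more had a median of -0.16, with 2 above 0, CCNH and CDK12, and 7 below. CCNH belongs there by its annotated length of 101 kb, while its last cluster lay 18.0 kb from the start in each list. Gene length and ratio had a Spearman's rho of -0.67 over 21 members and -0.57 over 5626 genes, both a description across genes of the same 2 lists. Relative to genes of similar length the members' median was -0.09, with 6 above 0 and 14 below, CCNL1 lying at 0. On that scale CCNK was lowest at -0.87, followed by CCNT2 at -0.52 and CCNI at -0.41. CDK14 and CDK19 both stood at -0.38, and CCNH was highest at 0.70. Again no member reached 2-fold, where 0.462% of all genes did so toward F125A and 2.1% toward WT. The medians of the families came closer on that scale, -0.09 for CDK genes and -0.14 for cyclin genes, each with 3 genes above 0 and 7 below besides CCNL1 at 0. What part gene length has in the difference between cyclins and CDKs was not tested.

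Most places recovered from cyclin and CDK introns with F125A recurred with WT, at about the share of other genes. A cluster was taken as shared where 1 nt or more of it lay in a cluster of the other list, strand included. Among the 744 F125A member clusters 642 were shared, 86.3% (83.6 to 88.7%), and among the 1496 WT member clusters 661, 44.2% (41.6 to 46.7%). All other clusters gave 85.5% and 45.2%, both inside the members' intervals. The F125A list is the shorter one, so a lower share of the WT clusters could be shared. By length class the members also lay near other genes: in genes under 30 kb 81.3% of F125A and 56.2% of WT member clusters were shared, against 79.3% and 56.1% in other genes, and in genes of 100 kb or more 89.0% and 40.2%, against 87.7% and 41.4%.

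CCNY and CDK14 show how far members differed in this. In CCNY, 131 of 138 F125A clusters (94.9%, 89.8 to 97.9%) and 50.4% of WT clusters had a partner. In CDK14 the shares were 86.7% of F125A and 25.8% (19.1 to 33.4%) of WT clusters, 40 of 155. In CDK16 all 23 F125A clusters and 75.9% of WT clusters were shared. Between role groups the F125A share ran from 70.2% (56.6 to 81.6%) in cell-cycle cyclins to 92.3% (87.4 to 95.7%) in the group of CCNY and CCNI. The WT share ran from 37.0% in the group of CDK14 and the PCTAIRE kinases and 37.6% in the transcription kinases to 56.3% in cell-cycle cyclins. In a gene or group, the WT share is limited by the number of F125A clusters, 45 in CDK14. It is therefore not independent of the count ratios given above. The 102 F125A member clusters without a WT partner were spread over the genes, with at most 10 in CDK13 and 7 each in CCNY and CDK6.

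**Figure D3:**
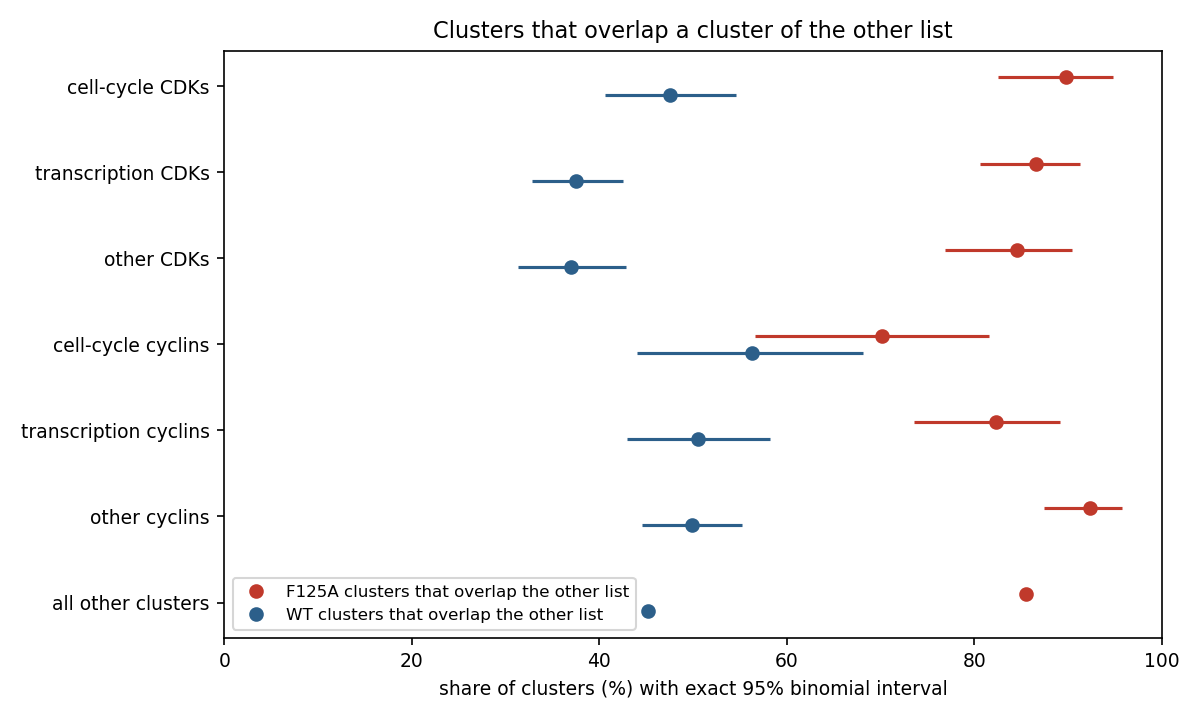
Share of clusters (x axis, %) that overlap a cluster of the other list on the same strand, by role group, for the F125A list (red) and the WT list (blue), with exact 95% binomial intervals; the bottom row gives all clusters of other genes. F125A shares lie between 70.2% and 92.3% and WT shares between 37.0% and 56.3%.

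Overlapping clusters of the members ended within a few bases of each other, as in other genes. Their 5′ ends and their 3′ ends each differed by a median of 4 nt, and the median overlap was 54 nt. The same 5′ end was used by 14.8% and the same 3′ end by 15.3% of the shared F125A clusters, and 22 pairs, 3.43%, had both ends in common. Other shared F125A clusters gave 15.8%, 16.7% and 4.24%, with the same median differences and a median overlap of 55 nt. They include a stretch of rows that was the same in both lists and held 0 member rows. In other genes named alone, both ends were the same in 2.34% under 30 kb and 2.53% from 30 to 100 kb. At 100 kb or more it was 2.3%, so these shares lay below that of the members. Member clusters were 64 nt long at the median in the F125A list (quartiles 51 and 81, range 26 to 189) and 60 nt in the WT list (quartiles 47 and 78, range 22 to 245). Other clusters had the same medians. Clusters that abut a neighbour on either side made up 7.66% of F125A and 9.56% of WT member clusters, against 9.42% and 10.7% of other clusters.

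The place of clusters along the genes was close between the lists, with a larger share of F125A clusters near gene starts and within 5 kb of gene ends. Within 1 kb of the annotated start lay 43 F125A clusters, 5.78% (4.21 to 7.71%), and 46 WT clusters, 3.07% (2.26 to 4.08%). Other clusters gave 3.35% and 1.95%, the same order of the lists. CDK1 had 4 such clusters in each list, CDK17 and CDK18 3 in each, and CCNE1 5 in the F125A and 4 in the WT list. In members under 30 kb the shares were 15.1% of F125A and 9.97% of WT clusters, against 12.2% and 9.37% in other genes of that length. The first 20% of the gene held 27.7% of F125A and 26.0% of WT member clusters. The last 20% held 8.60% and 9.43%, against 11.9% and 12.1% of other clusters. Within 5 kb of the annotated end lay 6.72% of F125A and 4.75% of WT member clusters, against 5.21% and 3.77% of other clusters. In members under 30 kb the order turned, with 18.7% of F125A and 19.6% of WT clusters. Other genes of that length gave 26.4% and 23.6%.

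In the 7 members with at least 100 clusters the dense stretches mostly coincided. CCNY had no cluster in its first 90 kb: the first lay 91.3 kb from the annotated start in the F125A list and 90.9 kb in the WT list, 1.80 and 1.45 kb downstream of a second annotated start. Its densest 10 kb, about 100 to 110 kb from the start, held 21 F125A and 33 WT clusters. CDK6 was densest between 11.1 and 20.8 kb, with 16 F125A and 24 WT clusters. CDK14 was densest about 18 to 28 kb from its start, with 7 F125A and 14 WT clusters. CDK19 held 6 F125A and 16 WT clusters and CDK17 7 F125A and 13 WT clusters in densest stretches that overlapped between the lists. In CDK13 and CDK8 these stretches did not overlap: CDK13 had 12 F125A clusters from 57.2 to 66.3 kb and 23 WT clusters from 101.4 to 111.2 kb.

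Long stretches of the large kinases held WT clusters and no F125A cluster. The widest gap between neighbouring F125A clusters was 101.8 kb in CDK14, from 414 to 516 kb, where the widest WT gap anywhere in the gene was 28.6 kb. In CDK19 the widest gaps were 54.9 kb in the F125A and 17.8 kb in the WT list, and in CDK8 43.8 and 23.7 kb. The F125A list has fewer clusters in each of these genes, and wider gaps go with fewer clusters.

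**Figure D4:**
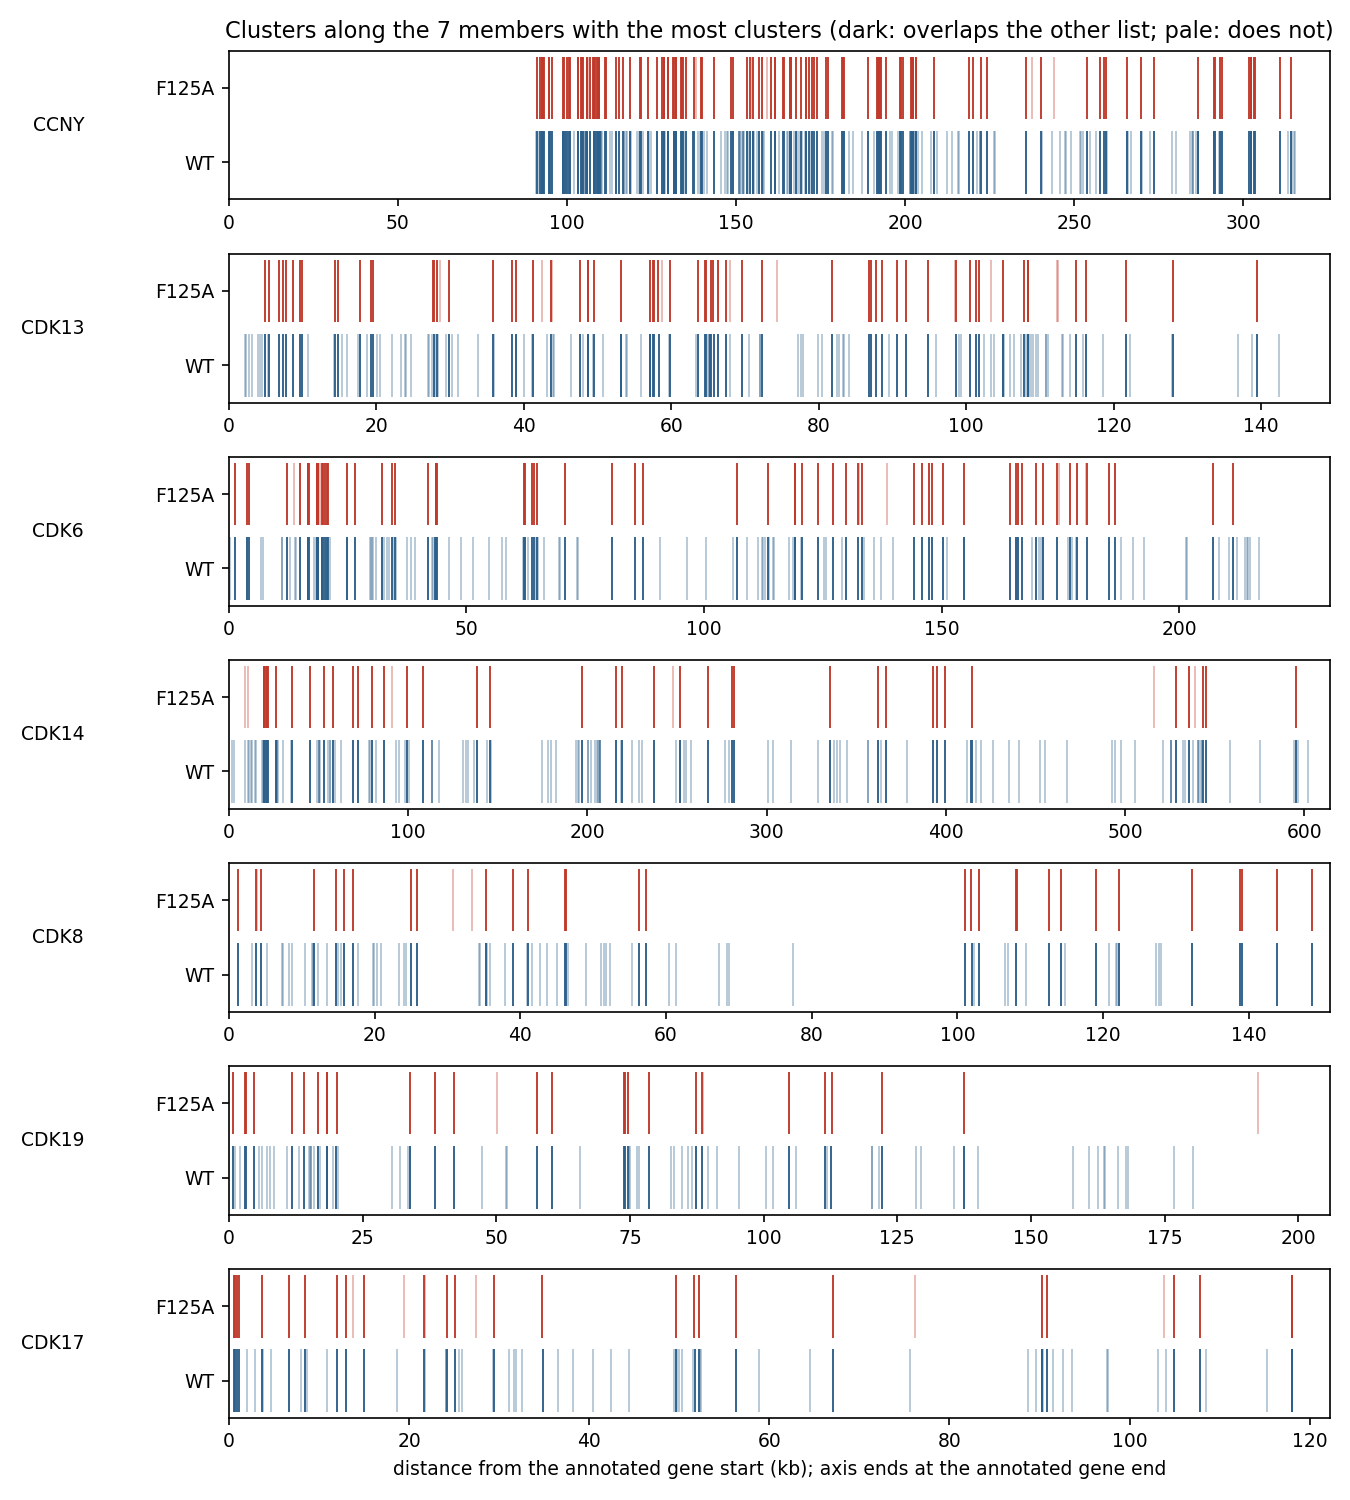
Clusters along the 7 members with at least 100 clusters, by distance from the annotated gene start in kb (x axis), F125A above WT in each panel; dark lines overlap a cluster of the other list and pale lines do not. Most F125A lines are dark and many WT lines are pale, and CCNY is empty over its first 90 kb in both lists.

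The longest single cluster of each list is given for these 7 genes. Abutting clusters were not joined, so a longer unbroken stretch may be split over several clusters. In CCNY the longest cluster was 189 nt at chr10:35354776-35354964 in the F125A list and 177 nt at chr10:35469388-35469564 in the WT list. The longest of all member clusters was a 245-nt WT cluster of CDK6 at chr7:92716093-92716337, with no F125A partner, where the longest F125A cluster of that gene was 118 nt at chr7:92772672-92772789. CDK13 had 160 nt in the F125A list at chr7:39997795-39997954 and 128 nt in the WT list at chr7:39959836-39959963. CDK14 had 132 nt in the F125A list at chr7:91010682-91010813 and 126 nt in the WT list at chr7:90649378-90649503. CDK8 had 147 nt in the F125A list at chr13:26269819-26269965 and 123 nt in the WT list at chr13:26362166-26362288. In CDK19 the longest were 137 nt in the F125A list at chr6:110795638-110795774 and 139 nt in the WT list at chr6:110768526-110768664, the WT one without a partner. In CDK17 they were 111 nt in the F125A list at chr12:96324160-96324270, without a partner, and 167 nt in the WT list at chr12:96348637-96348803. In none of the 7 genes was the longest cluster the same place in both lists.

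Further lists were counted in the same way: CDK inhibitors, other regulators of CDKs, the retinoblastoma and E2F pathway that CDKs act on, and other genes with CDK or CCN in their symbols. Of their 58 genes, 28 had at least 20 clusters. Of these, 0 were 2-fold toward F125A and 1 was 2-fold toward WT, beside the 1.99% and 2.51% of all genes. The CDK inhibitors, which block the kinases, were almost without clusters: 6 of 8 had any, with 12 F125A and 26 WT clusters in all and at most 5 F125A and 8 WT clusters in CDKN2A. Phosphatases, kinases and adaptors acting on CDKs had 9 genes above 0 and 4 below, relative to the list totals and also to genes of similar length. MED13L, which with MED13 links CDK8 to Mediator, held 278 F125A and 510 WT clusters, a log2 ratio of 0.09. MNAT1, the assembly factor of CDK7 and cyclin H, held 130 F125A and 260 WT clusters, a ratio of -0.03, and MED13 114 F125A and 189 WT clusters, 0.24.

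RB1, the retinoblastoma protein that CDK4 and CDK6 phosphorylate, was the gene 2-fold toward WT, with 13 F125A and 69 WT clusters, a log2 ratio of -1.36 (-2.43 to -0.58). Relative to genes of similar length it stood at -1.16. The genes of its pathway with enough clusters, 9 with RB1 included, had a median of 0.13, with 6 above 0 and 3 below. Against genes of similar length the tally turned, to 3 above 0 and 6 below, with a median of -0.13. E2F3, a transcription factor that the retinoblastoma protein holds back, had 113 F125A and 178 WT clusters, a ratio of 0.31. Of the partners of E2F factors, TFDP1 had 60 F125A and 82 WT clusters, 0.52, and TFDP2 27 F125A and 86 WT clusters, -0.67. Other genes with CDK or CCN in their symbols had 2 above 0 and 4 below, and relative to genes of similar length 5 above and 1 below. Among them were CDKAL1 with 136 F125A and 347 WT clusters, at -0.38 relative to the list totals and 0.04 to similar length, and CDK5RAP2 with 46 F125A and 97 WT clusters, at -0.10 and 0.10.

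Clusters of marker genes were counted as a check of the source. The HEK293 markers IRS4, with 74 F125A and 48 WT clusters, and CDH2, with 56 F125A and 151 WT clusters, were well covered, PAX2 had 8 F125A and 13 WT clusters and VIM 4 F125A and 5 WT clusters, and NEFM had none. Of liver, blood and muscle markers, ALB, APOB and MYH7 had none, and PTPRC and TTN at most 1 in a list. The neuronal markers SYT1, with 15 F125A and 67 WT clusters, and GRIN2B, with 2 F125A and 1 WT cluster, were present.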

How the data were processed

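RNA protected from nuclease was sequenced from 2 F125A, 3 WT and 1 control library, grouped by labelled genotype. A modified iCLIP preparation with molecular identifiers for removing PCR duplicates and size selection of inserts was used, per the labels' protocols. Cutadapt, STAR and hg38 are named in the submitters' processing notes. The sources used here do not give their versions, the cluster caller, its threshold, the gene annotation, the use of the control or the way libraries were combined.

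The deposited lists give, per the file headers, chromosome, start, end, gene, region and strand of each intronic cluster. These are positions in nt, with no count, score or p-value, and there are 0 per-sample columns. The lists held 192878 F125A and 373458 WT rows. Repeats (4851 and 7029) were dropped, none of them of a member. Since abutting clusters share a boundary, starts were taken to be 0-based, and 1 was added for printing.

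Clusters were counted per gene named alone. The log2 ratio used an added count of 1, the list totals (log2 -0.96) and a minimum of 20 clusters, with 2-fold as the threshold. For the length correction, genes were divided into 20 bins by length and the median of the bin was subtracted. Gene bounds and starts come from RefSeq GRCh38.p14 (11799 of 11805 names matched). The binomial intervals are Clopper-Pearson, and those of ratios were computed from the counts without the added 1. The interval of the members' median comes from order statistics over genes and does not measure counting error. Named were members with at least 20 clusters, members in 1 list only, the longest clusters of members with at least 100, and up to 3 genes of each pathway list with most clusters, besides those past 2-fold. Other members and markers were named after their values were seen. Values of some single genes of the pathway and marker lists are not reported here. The members, gene lists and ratios were chosen with earlier results of these data known. The planned results on splice sites and on the pentamer in all member clusters were left out, since no genome or exon table was used here, and the clusters in windows at gene starts, chosen after seeing the data, took their place. Scripts used Python 3.11.15, pandas 2.3.3, NumPy 2.4.6, SciPy 1.17.1 and matplotlib 3.10.9, and the ratio was tested on simulated data. Alternatives were an added 5, a minimum of 10 clusters, centring on the median gene, correction for length, merging of clusters closer than 50 nt, other overlap rules, keeping repeats, and leaving out a stretch of 5433 rows that was the same in both lists and held 0 member rows.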

Additional observations from a re-analysis of the deposited data

How the results depend on the processing

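With 1 list per group, no replicate could be left out and no paired analysis was possible because the lists do not separate the libraries. The median ratio of the members lay between -0.09 (similar length) and 0.30 (at least 10 clusters) over the alternatives, against 0.04. With at least 10 clusters, 32 members qualified, 20 of them above 0, and 2 were 2-fold toward F125A. Relative to genes of similar length, 6 members were above 0 instead of 11, and CCNY stood at 0.28. This correction turned the sign of 8 of 21 members (CCNB1, CCNC, CCNL2, CCNT1, CCNY, CDK1, CDK16 and CDK6). An added 5 turned that of CCNI, and merging turned those of CCNI and CCNY. When clusters up to 50 nt apart counted as shared, 87.8% of F125A and 47.3% of WT member clusters had a partner. Merging clusters closer than 50 nt left 667 F125A and 1317 WT member clusters, with median lengths of 67 and 63 nt, and no member 2-fold apart. The pentamer with 20 nt added on each side was not run. Small counts limit most members, and the 22 with fewer than 20 clusters carry no ratio.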
